A study of Mus musculus with 35 samples.

Results

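The 38 genes described here encode nucleolar proteins and factors that build ribosomes. They were taken by name from a list drawn up because NPM1 is a nucleolar protein, out of 21887 protein-coding genes of the mouse annotation, and all 38 were found and tested in each mark. The list was chosen with earlier results of these data known, so shares of the 38 beside those of all genes are description only. Histone ChIP-seq peaks of H3K27ac, H3K4me3 and H3K4me1 were compared in bone marrow of C57BL/6 mice, in 5 groups with 2 libraries per group and mark. The groups were lineage-negative hematopoietic stem and progenitor cells (HSPC) of DM, Npm1c and Flt3-ITD mice, neutrophils of WT mice, and HSPC of WT mice. DM is not spelled out in the labels and is read as the double mutant carrying both alleles. HSPC were enriched by depleting cells with lineage markers and neutrophils with an isolation kit, so every library holds a mixture of cells, and fewer cells of a type and less mark per cell cannot be told apart. Neither the age of the mice nor the promoter or recombinase behind the alleles is stated in the labels.

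The nucleolus is where RNA polymerase I transcribes ribosomal RNA and where the transcript is modified, cut and assembled with proteins into the small and large ribosomal subunits. Box C/D particles carry the methyltransferase fibrillarin and box H/ACA particles the pseudouridine synthase dyskerin, and both chemically modify ribosomal RNA. Npm1c is a form of nucleophosmin known from acute myeloid leukaemia that is held in the cytoplasm, and Flt3-ITD is a constantly active form of the receptor tyrosine kinase FLT3. H3K27ac marks active promoters and enhancers, H3K4me3 marks promoters, and H3K4me1 marks enhancers and the flanks of promoters.

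A gene's value is the length of its window covered by peaks, in kb, where the window runs from 5 kb before the gene to 5 kb past it. For 31 of the 38 genes that window also holds another protein-coding gene, so a peak can belong to the neighbour. Changes are given on the log2 scale of covered bp + 500, with the standard error (SE), and "rose" or "fell" means an adjusted p under 0.05 in limma (Benjamini-Hochberg over all genes of the mark). The fit has no scaling between libraries, and values after centring each library on its median stand beside it. The files hold no read counts, so depth is unknown; covered length of H3K27ac ranged from 13.5 to 23.9 Mb per library and differed most within a group between the DM libraries, with 20.3 Mb in replicate 1 and 13.5 Mb in replicate 2. Peak coverage does not check the edited alleles. H3K27ac at most marker genes matched the cell labels: all 10 neutrophil markers had a peak in both neutrophil libraries, while S100a8, S100a9, Ltf, Camp, Mmp9 and Retnlg were at 0 in both libraries of every HSPC group. Of the 10, 2 had a peak in both WT HSPC and 2 in both Npm1c HSPC libraries, and 1 each in DM and Flt3-ITD HSPC. Of 7 stem and progenitor markers, 1 had a peak in both neutrophil libraries, with Kit, Cd34, Gata2, Meis1, Hoxa9 and Flt3 at 0, against 7 of 7 in WT HSPC. All 7 had one in both libraries of Npm1c and of Flt3-ITD HSPC, and 6 in DM HSPC, where Gata2 was at 0 in both. Of 5 T and NK markers, 2 had a peak in both libraries of every group. Of 5 B-lymphoid markers, 1 did in each HSPC group and 2 in neutrophils.

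The genes carried all 3 marks almost everywhere. H3K4me3 and H3K4me1 peaks were present in the windows of all 38 genes in every library, and H3K27ac in 35 of 38 in every library. The median H3K27ac coverage over the 38 genes was 1.70 and 1.34 kb in DM HSPC, 1.92 and 2.07 kb in Npm1c HSPC, 1.77 and 1.81 kb in Flt3-ITD HSPC, 1.02 and 1.01 kb in WT neutrophils, and 1.45 and 1.44 kb in WT HSPC. Neutrophils were thus lowest and Npm1c HSPC highest, and neither these 2 groups nor Flt3-ITD HSPC overlapped with WT HSPC. The same groups were lowest and highest over all 12972 genes tested. Their medians were 1.034 and 1.044 kb in neutrophils and 1.632 and 1.770 kb in Npm1c HSPC, against 1.195 and 1.211 kb in WT HSPC. The number of H3K27ac peaks in the windows varied little, at 78 and 87 in Npm1c HSPC, 76 and 76 in neutrophils, and 83 and 74 in WT HSPC. Their mean width varied more, at 1101 and 1064 bp in Npm1c HSPC, 614 and 593 bp in neutrophils, and 729 and 835 bp in WT HSPC. DM HSPC had 85 and 82 such peaks of 892 and 668 bp, and Flt3-ITD HSPC 83 and 82 of 864 and 945 bp.

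**Figure D1:**
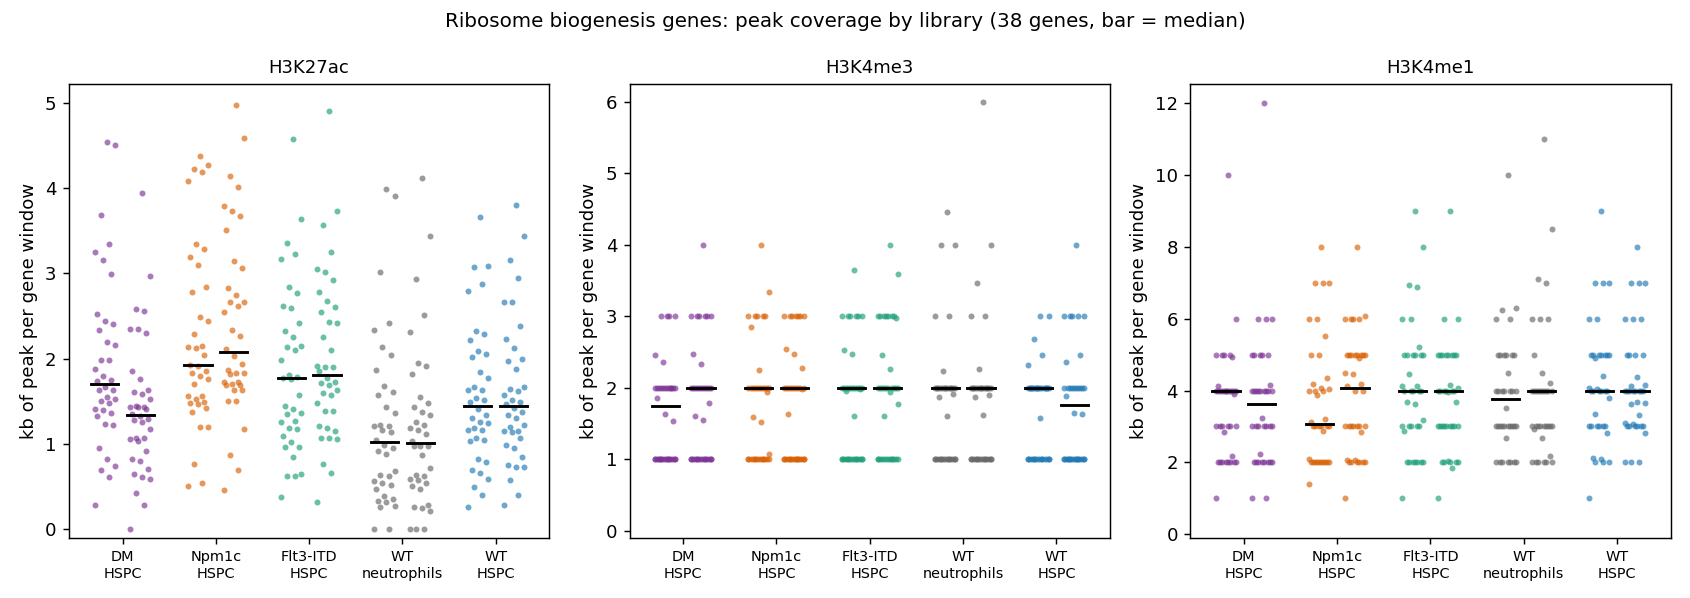
Peak coverage of the 38 ribosome biogenesis genes, in kb per gene window (y axis), in each of 10 libraries per mark (x axis, 2 columns per group); each point is a gene and each bar a library's median. For H3K27ac the neutrophil medians (1.02 and 1.01 kb) lie lowest and the Npm1c medians (1.92 and 2.07 kb) highest, while H3K4me3 values sit mostly on steps of 1 peak.

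Neutrophils had less H3K27ac than WT HSPC over genes of nucleolar core proteins, modification particles and several assembly factors. Of 38 genes, 15 fell and 0 rose, or 39.5% falling, where 23.4% of all 12972 genes tested for H3K27ac fell and 12.5% rose. After centring, 13 fell and 3 rose, against 20.1% and 19.7% of all genes. The median change was -0.34 over the 38 genes and -0.12 over all genes, and -0.19 and 0.03 after centring. Both neutrophil libraries lay below both WT HSPC libraries for 31 of 38 genes, as they did for 51.7% of all genes. Fewer of the 38 were called, in either direction, without either WT HSPC library or either neutrophil library, with and without centring. Without scaling, fewer of all genes were called in each of these cases too. The 8 erythroid markers had 2.86 and 2.69 kb of H3K27ac in neutrophils, with Car1, Car2, Rhag and Ank1 among those at 0 in both, against 28.9 and 27.2 kb in WT HSPC; their part in the result was not tested.

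Among nucleolar phosphoproteins and chaperones, 3 of 5 fell. Npm1 (chr11:33152498-33164142), which encodes nucleophosmin, a histone and ribosome assembly chaperone, had 0.278 and 0.218 kb of H3K27ac in neutrophils, against 1.243 and 1.134 kb in WT HSPC. These libraries did not overlap, and Npm1 fell by 1.18 (SE 0.20, adjusted p = 0.00414), or by 1.03 after centring (adjusted p = 0.000606). No other protein-coding gene lies in its window. Npm3, a nucleoplasmin-family relative, had 0.315 and 0.245 kb in neutrophils, against 0.827 and 0.950 kb in WT HSPC, and fell by 0.83 (SE 0.14, adjusted p = 0.00408). Gnl3, which encodes the nucleolar GTPase nucleostemin, had 0.916 and 0.973 kb in neutrophils, against 2.092 and 2.118 kb in WT HSPC, and fell by 0.85 (SE 0.09, adjusted p = 0.000686). Both also fell after centring. Ncl (nucleolin) and Nolc1 (a nucleolar and Cajal body phosphoprotein) did not pass the test in this window.

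Of the modification particles, 3 of 4 box C/D genes and 2 of 4 box H/ACA genes fell. Nop56 (chr2:130274367-130279313), a core box C/D protein, had 0.633 and 0.623 kb in neutrophils, against 1.847 and 1.881 kb in WT HSPC, and fell by 1.07 (SE 0.12, adjusted p = 0.000895). Idh3b also lies in its window. At the start of Nop56, neutrophil replicate 1 had a single peak of 264 bp (chr2:130273963-130274226), whereas WT HSPC replicate 1 had peaks of 605 bp (chr2:130273689-130274293) and 829 bp (chr2:130274428-130275256). The other core protein gene, Nop58, had 1.048 and 0.971 kb in neutrophils, against 1.490 and 1.494 kb in WT HSPC; it fell by 0.40 (adjusted p = 0.0425), but not after centring (adjusted p = 0.0542). Rrp9, which encodes the U3 particle protein, had no H3K27ac in either neutrophil library, against 0.404 and 0.405 kb in WT HSPC, and fell (adjusted p = 0.0250). Dkc1, the dyskerin gene, had 0.351 and 0.546 kb in neutrophils, against 1.255 and 1.306 kb in WT HSPC, and Nop10, its small partner, had 1.568 and 1.554 kb, against 3.069 and 2.659 kb. Dkc1 fell by 0.92 (adjusted p = 0.0345) and Nop10 by 0.70 (adjusted p = 0.00208), and both fell after centring.

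Of 7 genes of RNA polymerase I transcription, 2 fell. Polr1b, the second largest polymerase subunit, had 1.140 and 1.039 kb in neutrophils, against 1.770 and 1.976 kb in WT HSPC, and fell by 0.58 (SE 0.10, adjusted p = 0.00520). Mybbp1a, a nucleolar regulator of ribosomal RNA transcription, had 0.335 and 0.263 kb in neutrophils, against 1.046 and 0.983 kb in WT HSPC, and fell by 0.92 (SE 0.13, adjusted p = 0.00192). The other 5, among them Ubtf (the upstream binding factor) and Rrn3 (the initiation factor), did not pass the test.

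Of the 9 small subunit genes 3 fell, and of the 9 large subunit genes 2. Utp20 (chr10:88746607-88826814), a large scaffold of the small subunit precursor, had no H3K27ac in either neutrophil library, against 0.497 and 0.735 kb in WT HSPC, and fell (adjusted p = 0.00665). Tsr1, a late maturation factor, fell by 0.74 (adjusted p = 0.0168) and Rrp12, an export factor, by 0.28 (adjusted p = 0.0330), the second not after centring (adjusted p = 0.493). The PeBoW complex acts in large subunit processing. Its members Pes1 and Wdr12 fell, whereas its remaining member, Bop1, did not pass the test with or without centring. Bop1 had 0.389 and 0.281 kb in neutrophils, against 0.664 and 0.755 kb in WT HSPC. Pes1 had 0.561 and 0.720 kb in neutrophils, against 1.336 and 1.416 kb in WT HSPC, and Wdr12 had 0.627 and 0.574 kb, against 1.665 and 1.668 kb. The changes were -0.72 (adjusted p = 0.00259) and -0.98 (adjusted p = 0.00534).

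After centring 3 genes stood above WT HSPC. Rrp1b, a processing factor, had 2.418 and 2.508 kb in neutrophils, against 1.628 and 1.378 kb in WT HSPC. Bysl, a small subunit factor whose window includes Ccnd3, had 3.990 and 3.440 kb, against 3.087 and 3.155 kb. Heatr1, a factor of early small subunit precursors, had 1.676 and 1.191 kb, against 1.035 and 1.070 kb. They rose by 0.71, 0.36 and 0.45 after centring (adjusted p = 0.00853, 0.0193 and 0.0232), but without it none passed the test (adjusted p = 0.0934, 0.309 and 0.137).

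**Figure D2:**
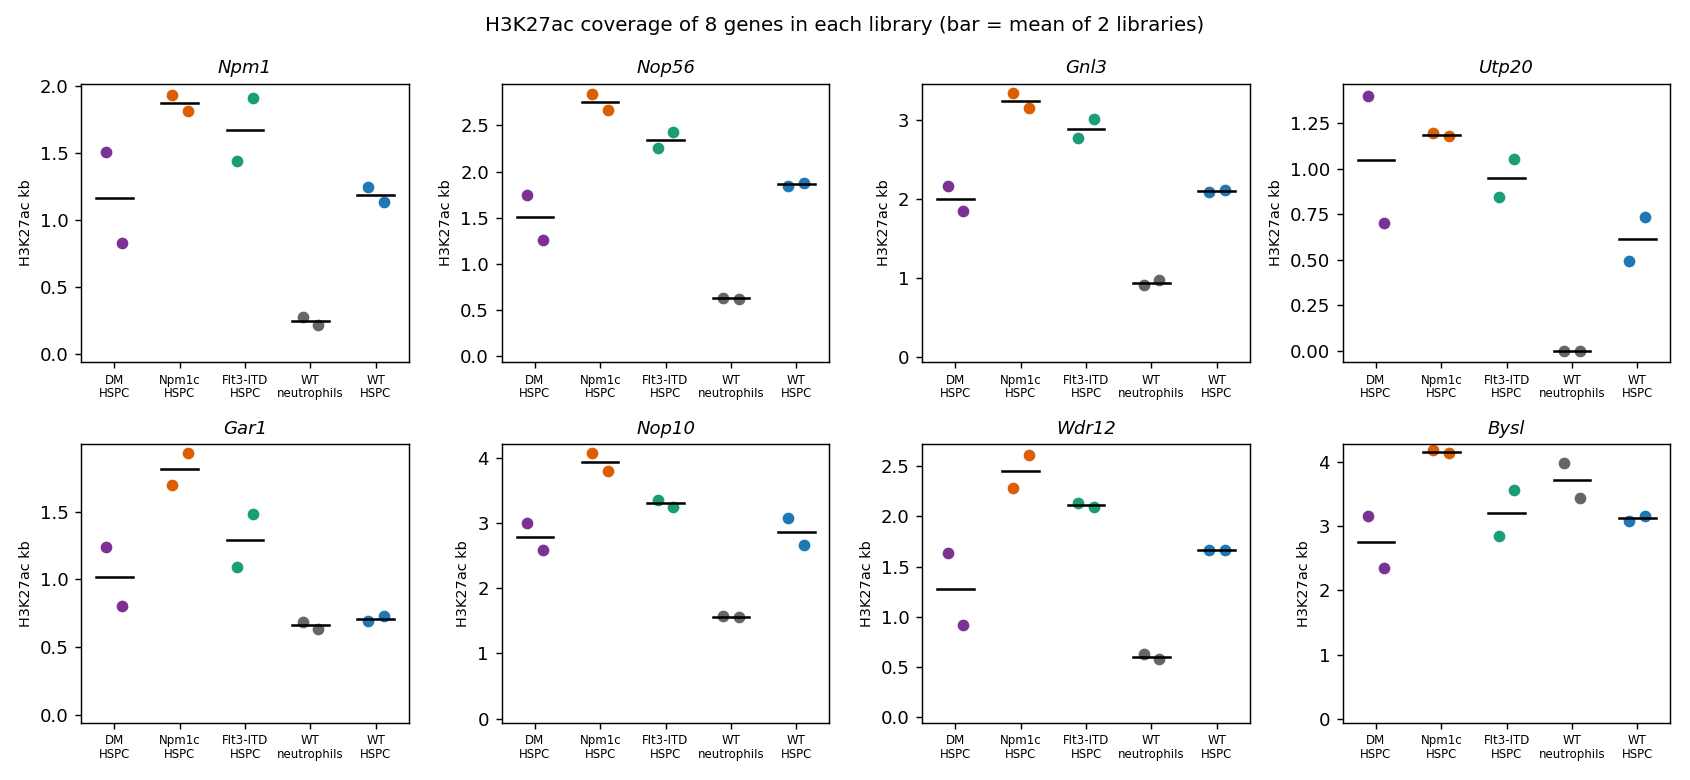
H3K27ac coverage in kb (y axis) of 8 ribosome biogenesis genes in the 5 groups (x axis); points are the 2 libraries of a group and bars their mean. For Npm1, Nop56, Gnl3, Nop10 and Wdr12 both neutrophil libraries lie below every HSPC library, Utp20 is at 0 in neutrophils, and Bysl is higher in both neutrophil libraries than in both WT HSPC libraries.

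Around the gene starts themselves H3K27ac was also lower in neutrophils. A start is listed for 33 of the 38 genes, all but Npm1, Fbl, Rrp12, Bop1 and Rrs1. H3K27ac within 1 kb of the start was present at all 33 in every HSPC library and at 29 in each neutrophil library; the 4 without it in neutrophils were Rrp9, Nop10, Polr1b and Utp20. The median coverage there was 716 and 722 bp in neutrophils, against 1206 and 1192 bp in WT HSPC. Both neutrophil libraries lay below both WT HSPC libraries at 30 of 33 starts, against 56.9% of the 8783 genes with H3K27ac at the start in at least 2 libraries. In a fit over this narrower window, added after the data were seen, 19 of 33 genes fell (57.6%, against 26.4% of all genes), and after centring 15 fell and 1, Polr1c, rose (against 16.7% and 15.4%). The first count was 12 without neutrophil replicate 2. Nop10, Polr1b, Utp20 and Rrp9, at 0 in neutrophils, fell with adjusted p of 0.000776, 0.000201, 0.00175 and 0.00361, and the size of their change depends on the 500 bp added. Of the genes with H3K27ac left, Nop56 fell most, by 1.27 (adjusted p = 0.000827), with 264 and 314 bp in neutrophils, against 1434 and 1359 bp in WT HSPC. Polr1a, Ncl, Nolc1, Nhp2, Nop16 and Rrp1b fell around the start but not over the wider window, Rrp1b by 0.24 (adjusted p = 0.0111), although its wider window stood above WT HSPC after centring. Nop10 had no H3K27ac around its start in either neutrophil library, against 798 and 819 bp in WT HSPC, and Polr1b had none, against 781 and 807 bp. The H3K27ac that remained in their wider windows in neutrophils lay more than 1 kb from the start.

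At the same starts H3K4me3 peaks were present in neutrophils at all but 1, and H3K4me1 peaks covered more bp close to the start in neutrophils at several. H3K4me3 was present within 1 kb of 32 of 33 starts in every library of every group; the exception was Ubtf, at its listed start. It covered at least 500 bp around 31 starts in each neutrophil library, against 32 in each WT HSPC library. Rrp9 had 385 and 403 bp of H3K4me3 in neutrophils, against 1000 and 1000 bp in WT HSPC, and Nop14 had 790 and 777 bp, against 1000 and 1000 bp. Peaks of H3K4me3 and H3K4me1 are all 1000 bp wide, so bp around a start depend on where a peak lies. Over the gene window, neutrophil and WT HSPC libraries had the same H3K4me3, 1 kb each for Rrp9 and 2 kb each for Nop14. H3K4me1 covered at least 500 bp around 29 starts in each neutrophil library, against 20 in each WT HSPC library, and both neutrophil libraries exceeded both WT HSPC libraries at 20 of 33 starts, against 26.1% of the 11861 genes with H3K4me1 at the start in at least 2 libraries. In the fit, 6 of 33 genes rose (Gnl3, Mybbp1a, Ncl, Nop56, Nop58 and Tsr1) and Npm3 fell, where 4.13% of all genes rose and 5.90% fell; after centring Gnl3, Ncl, Nop56 and Tsr1 rose and Npm3 fell, against 4.15% and 5.15%. Without WT HSPC replicate 2 or without neutrophil replicate 2 the number called was 4. Gnl3 had 1040 and 972 bp of H3K4me1 around its start in neutrophils, against 55 and 98 bp in WT HSPC. Ncl had 531 and 514 bp in neutrophils and none in WT HSPC, and Tsr1 had 941 and 876 bp in neutrophils and none in WT HSPC. Nop56 had 1358 and 1392 bp in neutrophils, against 490 and 172 bp in WT HSPC. Over the gene window, H3K4me1 of these genes was not higher throughout. Ncl had 5 and 4 kb in neutrophils, against 6 and 6 kb in WT HSPC. Nop56 had 3 and 3 kb, against 4 and 5 kb, and Nop58 had 2 and 3 kb, against 4 and 4 kb. Mybbp1a had 5 and 4 kb, against 3 and 3 kb, and the groups overlapped for Gnl3 and Tsr1. At 19 of 33 starts both shifts held together, less H3K27ac and more H3K4me1 with no overlap of the libraries, against 23.7% of the 8586 genes that carry both marks at the start.

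**Figure D3:**
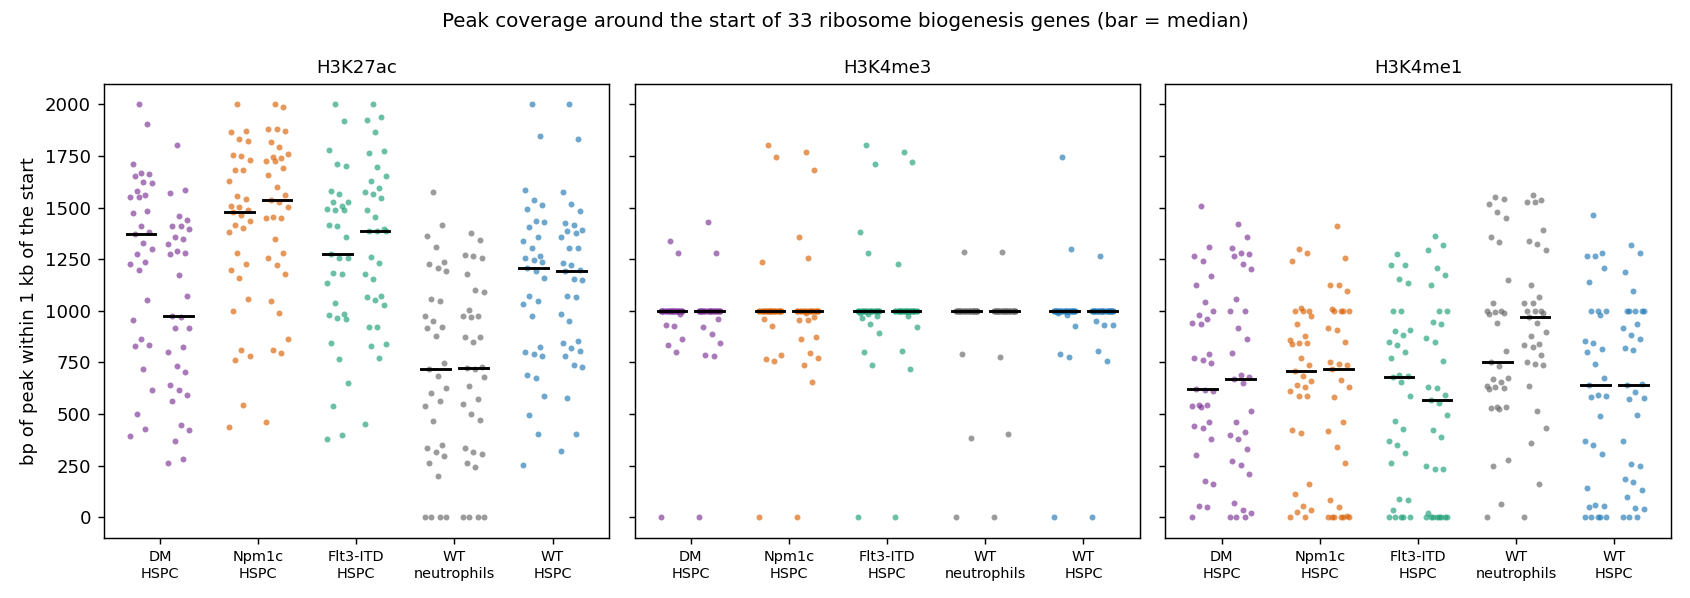
Peak coverage within 1 kb of the annotated start, in bp (y axis), of 33 ribosome biogenesis genes in each library (x axis, 2 columns per group); points are genes and bars library medians. Neutrophil medians are low for H3K27ac (716 and 722 bp, against 1206 and 1192 bp in WT HSPC) and high for H3K4me1 (751 and 972 bp, against 641 and 639 bp), while H3K4me3 medians are 1000 bp throughout.

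The promoters of 4 genes with less H3K27ac within 1 kb of the start in neutrophils are shown to set the marks against sequence, from 250 bases before to 50 bases from the start (RefSeq, GRCm38.p6). Capitals mark the E-box CACGTG, a palindrome bound by MYC and related factors. Utp20 lies at chr10:88826765-88827064 on the minus strand, Pes1 at chr11:3963725-3964024, Mybbp1a at chr11:72441077-72441376 and Rrp9 at chr9:106477059-106477358, all 3 on the plus strand.
Utp20: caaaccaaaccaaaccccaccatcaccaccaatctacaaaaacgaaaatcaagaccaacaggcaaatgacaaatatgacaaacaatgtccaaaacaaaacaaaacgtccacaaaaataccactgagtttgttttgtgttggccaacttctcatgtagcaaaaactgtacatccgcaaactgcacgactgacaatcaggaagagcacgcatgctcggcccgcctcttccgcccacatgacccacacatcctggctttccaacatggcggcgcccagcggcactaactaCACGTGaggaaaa
Pes1: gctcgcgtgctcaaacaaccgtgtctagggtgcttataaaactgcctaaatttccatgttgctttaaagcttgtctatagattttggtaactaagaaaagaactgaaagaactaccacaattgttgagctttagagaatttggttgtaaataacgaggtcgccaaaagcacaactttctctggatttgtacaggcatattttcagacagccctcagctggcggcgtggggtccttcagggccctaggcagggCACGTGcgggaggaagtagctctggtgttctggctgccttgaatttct
Mybbp1a: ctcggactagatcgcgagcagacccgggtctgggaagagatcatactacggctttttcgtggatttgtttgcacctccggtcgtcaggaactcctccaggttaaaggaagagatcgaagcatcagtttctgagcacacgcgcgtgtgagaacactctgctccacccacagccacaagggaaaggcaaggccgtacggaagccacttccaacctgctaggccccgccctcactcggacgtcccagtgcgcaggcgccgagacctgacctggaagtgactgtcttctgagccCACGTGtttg
Rrp9: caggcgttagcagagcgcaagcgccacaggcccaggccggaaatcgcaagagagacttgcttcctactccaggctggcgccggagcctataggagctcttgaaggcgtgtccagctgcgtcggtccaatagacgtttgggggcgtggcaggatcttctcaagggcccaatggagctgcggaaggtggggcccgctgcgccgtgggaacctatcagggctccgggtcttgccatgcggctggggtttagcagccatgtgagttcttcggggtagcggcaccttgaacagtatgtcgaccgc
The first base of the E-box lies 37 bases after the start in Utp20, 2 bases after it in Pes1 and 40 bases after it in Mybbp1a, and Rrp9 has none in this window. H3K27ac covered 0 and 0 of the 300 bases of Utp20 in neutrophils, against 81 and 300 in WT HSPC, whereas H3K4me3 covered 300 and 300 in neutrophils, against 269 and 298 in WT HSPC. Pes1 kept H3K27ac over 226 and 233 of its 300 bases in neutrophils, against 300 and 300 in WT HSPC, and Mybbp1a over 203 and 189, against 229 and 297. Over the 300 bases of Rrp9, H3K27ac covered 0 and 0 in neutrophils, against 0 and 50 in WT HSPC, so the groups overlapped there, and H3K4me3 covered 0 and 0 in neutrophils, against 204 and 193 in WT HSPC. The gene window of Rrp9 held 1 kb of H3K4me3 in each of these libraries, so its peak lay elsewhere in the window in neutrophils. An E-box was found in 7 of 33 promoters (21.2%), those of Mybbp1a, Nop2, Pes1, Rrn3, Tsr1, Utp20 and Wdr43, and in 7.91% of 17492 promoters of the same length. Mybbp1a, Pes1, Tsr1 and Utp20 were among the 19 genes whose H3K27ac fell around the start in neutrophils, whereas Nop2, Rrn3 and Wdr43 were not. The 4 printed promoters are thus not a fair sample of the motif, and a link between it and H3K27ac was not tested. The full palindromic NRF1 motif was in none of the 33 and in 1.33% of all promoters. Each motif reads the same on both strands.

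Npm1c HSPC had more H3K27ac than WT HSPC at every one of the 38 genes on average, and over most other genes as well. The change was above 0 for 38 of 38 genes, with a median of 0.405, where the median over all genes was 0.347. Without scaling 10 of 38 rose (26.3%, against 16.8% of all genes) and 0 fell (0.0231% of all genes): Npm3, Gnl3, Nolc1, Nop56, Nop58, Gar1, Nop10, Wdr43, Pes1 and Ddx21. After centring 0 rose or fell in limma (0.755% and 0.0308% of all genes), with 6 at an unadjusted p under 0.05 and a median change of 0.035. Both Npm1c libraries lay above both WT HSPC libraries for 35 of 38 genes, as they did for 77.0% of all genes. Fewer of the 38 were called when any 1 of the 4 libraries was left out, and fewer of all genes were too. Npm1c HSPC also had more H3K27ac over the 7 stem and progenitor markers, at 43.8 and 48.4 kb in all, against 8.14 and 8.68 kb in WT HSPC, and over the 8 erythroid markers, at 46.0 and 33.6 kb, against 28.9 and 27.2 kb; their part in the result was not tested.

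The gene with the largest change was Gar1 (chr3:129824912-129831407), a box H/ACA core protein. It had 1.697 and 1.934 kb in Npm1c HSPC, against 0.691 and 0.730 kb in WT HSPC, and rose by 0.93 (SE 0.17, adjusted p = 0.0204), while its centred change was 0.56 (adjusted p = 0.0605). Around its start it also rose, with 1401 and 1501 bp in Npm1c HSPC, against 691 and 730 bp in WT HSPC (change 0.69, adjusted p = 0.0437); Heatr1 was the other gene that rose there, so 2 of 33 rose, against 7.33% of all genes, and 0 without any 1 of the 4 libraries. After centring 0 of 33 were called around the start (0.182% of all genes rose), with adjusted p of 0.0897 for Gar1 and 0.454 for Heatr1. Wdr43, a small subunit factor, had 2.782 and 2.822 kb in Npm1c HSPC, against 1.406 and 1.471 kb in WT HSPC, and rose by 0.77 (adjusted p = 0.0169). Ddx21, a helicase that links polymerase I transcription to processing, had 4.219 and 4.013 kb, against 2.218 and 2.376 kb, and rose by 0.72 (adjusted p = 0.0232). Nop58 rose by 0.70 (adjusted p = 0.0204) and Gnl3 by 0.52 (adjusted p = 0.0195). At Nop56 a single peak of 1887 bp ran across the start in Npm1c replicate 1 (chr2:130273581-130275467), where WT HSPC replicate 1 had the peaks of 605 and 829 bp described above. Npm1, the mutated gene, had 1.930 and 1.815 kb in Npm1c HSPC, against 1.243 and 1.134 kb in WT HSPC; the libraries did not overlap, but the change of 0.49 (SE 0.20) did not pass the test (adjusted p = 0.113).

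Flt3-ITD HSPC gave no call for H3K27ac. Of 38 genes 0 rose and 0 fell in limma, with or without centring, where 0.2% of all genes rose and 0.0617% fell without scaling and 0.879% and 0.455% with centring; 6 genes had an unadjusted p under 0.05 without scaling and 5 with centring. The median change was 0.225 over the 38 genes and 0.114 over all genes, and both Flt3-ITD libraries lay above both WT HSPC libraries for 29 of 38 genes, against 44.6% of all genes. The changes of greatest size were those of Nop58 (0.60, adjusted p = 0.106), Gar1 (0.56, adjusted p = 0.190) and Taf1d, a polymerase I initiation factor subunit (0.42, adjusted p = 0.387). Nop58 had 2.421 and 2.601 kb in Flt3-ITD HSPC, against 1.490 and 1.494 kb in WT HSPC. Npm1 had 1.440 and 1.905 kb in Flt3-ITD HSPC, against 1.243 and 1.134 kb in WT HSPC (change 0.36, adjusted p = 0.460).

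DM HSPC gave no H3K27ac call against WT HSPC over the gene windows. In limma 0 of 38 genes rose or fell, with or without centring, where 6.67% of all genes rose and 5.87% fell without scaling and 10.7% and 10.4% with centring; 2 genes had an unadjusted p under 0.05, or 11 after centring, and 21 changes were above and 17 below 0. Leaving out either DM library gave calls among the 38, with and without centring. Without scaling it gave more calls over all genes as well. The largest changes were in Polr1a (0.66, adjusted p = 0.255), the largest polymerase I subunit, Utp20 (0.45, adjusted p = 0.255) and Nolc1 (0.32, adjusted p = 0.108). Polr1a had 3.253 and 1.433 kb in DM HSPC, against 1.192 and 1.224 kb in WT HSPC, and Npm1 had 1.505 and 0.824 kb, against 1.243 and 1.134 kb. The DM libraries lay far apart in both. Around the start 1 of 33 genes fell, Polr1b, with 392 and 262 bp in DM HSPC, against 781 and 807 bp in WT HSPC (change -0.65, adjusted p = 0.0217, and -0.66 after centring, adjusted p = 0.00710); 2.8% of all genes fell there, and 0 of the 33 were called without either WT HSPC library and 8 without DM replicate 1. The 8 erythroid markers had 5.76 and 4.10 kb of H3K27ac in DM HSPC, against 28.9 and 27.2 kb in WT HSPC, with Car1 and Rhag among those at 0 in both DM libraries; their part in the result was not tested.

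Against Npm1c HSPC, DM HSPC had less H3K27ac over genes of all 6 roles. Of 38 genes 15 fell (39.5%, against 29.8% of all genes) and 0 rose (2.92% of all genes): Npm3, Ncl, Gnl3, Nop56, Nop58, Gar1, Nhp2, Nop10, Polr1b, Taf1d, Wdr43, Bysl, Pes1, Wdr12 and Ddx21. After centring 4 fell, Ncl, Nop56, Taf1d and Wdr12, and 0 rose, against 14.0% and 11.1% of all genes. Both DM libraries lay below both Npm1c libraries for 27 of 38 genes, against 56.8% of all genes. Nop56 had 1.749 and 1.257 kb in DM HSPC, against 2.841 and 2.668 kb in Npm1c HSPC, and fell by 0.71 (SE 0.12, adjusted p = 0.00595), or by 0.37 after centring (adjusted p = 0.0180). Wdr12 had 1.632 and 0.915 kb in DM HSPC, against 2.286 and 2.618 kb in Npm1c HSPC, and fell by 0.76 (SE 0.18, adjusted p = 0.0170). Taf1d had 0.828 and 0.424 kb in DM HSPC, against 1.369 and 2.030 kb in Npm1c HSPC, and fell by 0.97 (SE 0.20, adjusted p = 0.0117). Ncl had 2.334 and 1.587 kb in DM HSPC, against 3.186 and 3.504 kb in Npm1c HSPC, and fell by 0.66 (SE 0.15, adjusted p = 0.0152). In each of these 4 the DM libraries did not overlap with the Npm1c libraries. Fewer of the 38 were called without DM replicate 2 or either Npm1c library, and more without DM replicate 1. Calls over all genes moved in the same direction in each of these cases. The 4 calls after centring were lost without DM replicate 2, and fewer were made without either Npm1c library. The 8 erythroid markers had 5.76 and 4.10 kb in DM HSPC, against 46.0 and 33.6 kb in Npm1c HSPC, and the 7 stem and progenitor markers 31.1 and 19.8 kb, against 43.8 and 48.4 kb; their part in the result was not tested. Around the start 5 of 33 fell (Heatr1, Nop10, Nop56, Polr1b and Wdr12), or 15.2%, where 15.8% of all genes did, and 1, Polr1b, after centring (6.01% of all genes); the count of 5 was 18 without DM replicate 1, 2 without DM replicate 2, 1 without Npm1c replicate 1 and 2 without Npm1c replicate 2.

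Against Flt3-ITD HSPC, DM HSPC gave 0 calls without scaling in limma, where 2.05% of all genes fell and 0.578% rose, and 7 genes had an unadjusted p under 0.05. After centring Nop56 and Wdr12 fell (by 0.41 and 0.49, adjusted p = 0.0348 and 0.0484) and 0 rose, against 3.41% and 2.52% of all genes. Nop56 had 1.749 and 1.257 kb in DM HSPC, against 2.257 and 2.424 kb in Flt3-ITD HSPC. Without scaling the changes of greatest size were -0.67 for Taf1d, -0.62 for Rrs1, a large subunit factor, and -0.59 for Wdr12 (adjusted p = 0.15, 0.348 and 0.148). Without DM replicate 1 there were 10 calls without scaling, and the 2 centred calls were lost without DM replicate 2 and without either Flt3-ITD library. Polr1b alone fell around the start (by 0.70, adjusted p = 0.0354), with 392 and 262 bp in DM HSPC, against 768 and 920 bp in Flt3-ITD HSPC; 1.37% of all genes fell there, and the count was 12 without DM replicate 1 and 0 without DM replicate 2 or Flt3-ITD replicate 2.

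The interaction asks whether the change in DM against Flt3-ITD HSPC differed from that in Npm1c against WT HSPC. It was below 0 for 37 of 38 genes and passed the test, below 0, for 12 (16.6% of all genes did): Npm3, Ncl, Gnl3, Nop56, Nop58, Gar1, Nop10, Polr1b, Taf1d, Wdr43, Wdr12 and Ddx21. The median was -0.53 over the 38 genes and -0.44 over all genes. After centring Gar1 alone was called (-0.70, adjusted p = 0.0432), where 2.87% of all genes were called below 0 and 1.16% above. Gar1 had 1.237 and 0.802 kb in DM HSPC, 1.697 and 1.934 kb in Npm1c HSPC, 1.094 and 1.484 kb in Flt3-ITD HSPC and 0.691 and 0.730 kb in WT HSPC. More of the 38 were called without DM replicate 1, and fewer without Flt3-ITD replicate 2, either Npm1c library or either WT HSPC library. Calls over all genes moved in the same direction in each of these cases. The centred call was lost without either WT HSPC library, DM replicate 2 or Flt3-ITD replicate 2. More of the 38 were called after centring without DM replicate 1 or Npm1c replicate 2. This comparison and those of the single mutants share the WT HSPC libraries.

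**Figure D4:**
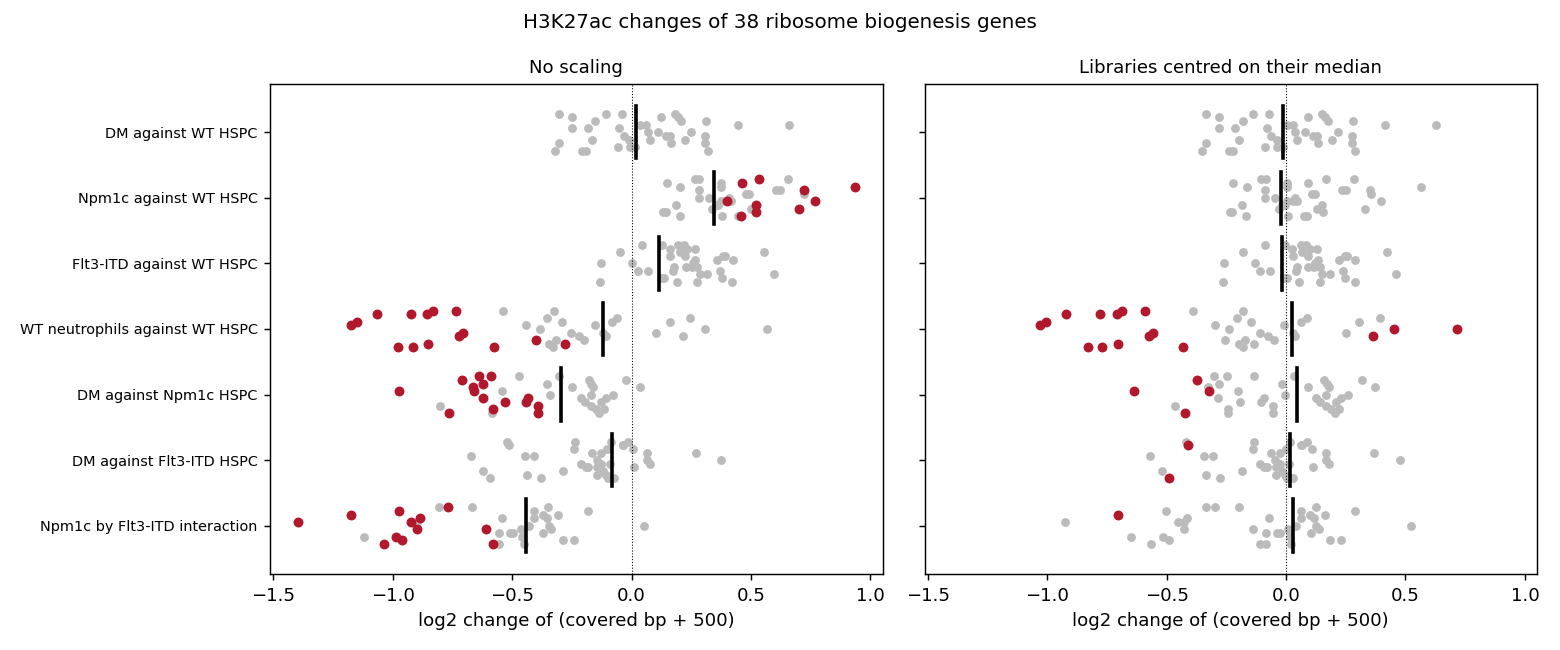
log2 changes in H3K27ac coverage (x axis) of the 38 ribosome biogenesis genes in 7 comparisons (y axis), without scaling (left) and after centring each library on its median (right). Red points passed an adjusted p of 0.05, grey points did not, and black bars are the medians of all genes tested; centring leaves 0 red points for Npm1c against WT HSPC and 16 for WT neutrophils against WT HSPC.

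H3K4me3 over the gene windows differed at few of the 38 genes. Its peaks have a fixed width of 1000 bp, so values move in steps of a peak, and 17 of the 38 genes, like 6084 of the 16138 tested, had no spread between the libraries of any group; a call then marks the same change of a peak in both libraries, and its p has little meaning. Nop58, Dkc1, Polr1c, Mybbp1a, Utp20, Nob1, Nat10, Nop16, Wdr12 and Nip7 had 1 kb in all 10 libraries. Fbl, the fibrillarin gene, had 3 kb in both libraries of DM and of Flt3-ITD HSPC, against 2 kb in both libraries of Npm1c and of WT HSPC, and rose by 0.49 in DM and in Flt3-ITD HSPC against WT HSPC. It was the 1 gene of 38 that rose in either comparison, where 4.47% of all genes rose in DM and 2.27% in Flt3-ITD HSPC, and the 1 that rose in DM against Npm1c HSPC (3.8% of all genes). Nolc1, with 2 kb in both neutrophil libraries, against 1 kb in both WT HSPC libraries, and Ubtf, with 4 kb, against 3 kb, were the 2 genes that rose in neutrophils (6.72% of all genes). No gene of the 38 fell in neutrophils or in DM against WT HSPC, where 9.88% and 3.7% of all genes did. Over the gene span without the 5 kb extension, 18 of the 38 were called in neutrophils, where 1298 of 15400 genes rose and 2266 fell. Nop14, a small subunit factor, had 2 and 2 kb in DM HSPC, against 4 and 3 kb in Npm1c HSPC; it fell by 0.67 (adjusted p = 0.0206; 4.34% of all genes fell) and had a negative interaction (-1.15, adjusted p = 0.0105; 3.78% of all genes). Npm1c against WT HSPC and DM against Flt3-ITD HSPC gave 0 calls in limma (0.967% and 2.03% of all genes rose, 0.403% and 3.62% fell), with 1 and 4 genes at an unadjusted p under 0.05. Centring moved the median of all genes by up to 0.58, since a library's median is itself 1 or 2 peaks. After it Nolc1 was still called, Heatr1 and Polr1a rose beside it in neutrophils (9.4% of all genes rose and 6.06% fell), and none of the 38 was called in the other comparisons. Of all genes, centring left 0.0124%, 0.136% and 2.15% rising and 0.112%, 0.26% and 2.73% falling in Npm1c, Flt3-ITD and DM against WT HSPC. Npm1 had 1.630 and 1.606 kb in DM HSPC, 1.933 and 2.538 kb in Npm1c HSPC, 3.646 and 3.593 kb in Flt3-ITD HSPC, 1.916 and 1.900 kb in neutrophils and 2.684 and 1.625 kb in WT HSPC, and no comparison of it passed the test. The H3K4me3 counts moved with single libraries: in Flt3-ITD against WT HSPC the 1 was 4 without WT HSPC replicate 1 and 2 without WT HSPC or Flt3-ITD replicate 2, in DM against WT HSPC it was 3 without either WT HSPC library, and in neutrophils the 2 was 4 without WT HSPC replicate 2. In DM against Npm1c HSPC the 2 was 5 without Npm1c replicate 2 and 1 without either DM library, and the interaction's 1 was 4 without Npm1c replicate 2 or WT HSPC replicate 1 and 2 without WT HSPC replicate 2.

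H3K4me1 over the whole gene windows changed at single genes. Polr1a rose in neutrophils, with 10 and 11 kb, and in DM HSPC, with 10 and 12 kb, against 7 and 8 kb in WT HSPC (changes 0.46 and 0.52, adjusted p = 0.0404 and 0.0342), and again after centring (adjusted p = 0.0222 and 0.00560). It was the 1 gene of 38 that rose in each (4.54% and 1.9% of all genes). Npm1 had 3 and 2.94 kb in neutrophils and 3 and 3.23 kb in DM HSPC, against 4.92 and 4 kb in WT HSPC, with no overlap, and fell by 0.51 and 0.45 (adjusted p = 0.0236 and 0.0433); neither held after centring (adjusted p = 0.0792 and 0.537). In neutrophils Ncl, Nhp2, Npm3 and Taf1d fell with it, so 5 of 38 (17.7% of all genes), and in DM HSPC Ncl and Taf1d, so 3 of 38 (14.4%). Nhp2 encodes a box H/ACA core protein. After centring, Polr1b rose and Nat10, an RNA acetyltransferase, fell in neutrophils (6.05% of all genes rose, 18.1% fell), and Utp20 rose in DM HSPC (5.88%). Utp20 had 5 and 6 kb of H3K4me1 in DM HSPC, against 2 and 3 kb in WT HSPC. Fewer of the 38 were called for H3K4me1 in neutrophils without either WT HSPC library. The same held in DM HSPC without either DM library or WT HSPC replicate 1. Fewer of all genes were called in each of these cases too. Against Npm1c HSPC, DM HSPC had 1 gene that rose, Polr1a, and 4 that fell, Ncl, Nhp2, Npm1 and Taf1d (2.85% and 10.9% of all genes). After centring Polr1a and Utp20 rose (7.02%). Without scaling there were fewer calls without either DM library, among the 38 and over all genes. Taf1d fell in Flt3-ITD HSPC, with 4 and 3.97 kb, against 5 and 5 kb in WT HSPC (1.59% of all genes), but not after centring (adjusted p = 0.565). More of the 38 and more of all genes were called there without either Flt3-ITD library. In limma 0 genes were called in Npm1c against WT HSPC, DM against Flt3-ITD HSPC and the interaction, with 3, 5 and 2 at an unadjusted p under 0.05, where 0.164%, 1.06% and 1.13% of all genes rose and 0.502%, 7.9% and 3.13% fell. Around the start, Tsr1 alone was called in DM against WT HSPC, with 303 and 329 bp in DM HSPC and none in WT, Npm1c or Flt3-ITD HSPC (1.53% of all genes rose). Both DM libraries exceeded both WT HSPC libraries at 10 of 33 starts (20.6% of all genes) and lay below at 1 (17.1%). They exceeded both Npm1c libraries at 10 (18.4%) and lay below at 3 (16.6%). Against Flt3-ITD HSPC these counts were 11 (19.6%) and 1 (13.4%).

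Other genes of ribosome production are given for comparison, with no test of a difference from the 38. Of 81 further ribosome biogenesis genes, 19 fell (23.5%) and 2 rose for H3K27ac in neutrophils against WT HSPC, where 23.4% of all genes fell and 12.5% rose, with a median of -0.17. Of 77 cytosolic ribosomal protein genes 44 fell (57.1%) and 0 rose, with a median of -0.45. After centring 14 of the 81 fell (17.3%) and 5 rose, and 34 of the 77 fell (44.2%) and 0 rose, where 20.1% of all genes fell and 19.7% rose. In Npm1c against WT HSPC, 14 of 81 (17.3%) and 28 of 77 (36.4%) rose, where 16.8% of all genes did, and 0 of either list after centring (0.755% of all genes). Noc3l, Naf1 and Ddx18 had no H3K27ac in either neutrophil library, against 1.363 and 1.455 kb, 1.032 and 0.914 kb, and 0.744 and 0.747 kb in WT HSPC, and all 3 fell. Rcl1 had 0.460 and 0.402 kb in neutrophils and 6.796 and 4.749 kb in Npm1c HSPC, against 2.486 and 2.206 kb in WT HSPC; it fell by 1.61 in neutrophils (adjusted p = 0.00440) and rose by 1.12 in Npm1c HSPC (adjusted p = 0.0388). Noc3l is a large subunit factor, Naf1 an assembly factor of box H/ACA particles, Ddx18 a helicase and Rcl1 a small subunit factor.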

How the data were processed

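ChIP-seq libraries of 5 groups were used, with 2 libraries per group for each of 3 marks (30 peak lists); 5 input samples carry no peak list and were not used. Per the submitters' processing notes, reads were handled with Bowtie2 2.1.0, Picard, HOMER and MACS2 on mm10. The authors deposited peak positions only, with no score, signal or count, so sequencing depth and its counting error are unknown. H3K4me3 and H3K4me1 peaks are 1000 bp wide and H3K27ac peaks vary in width, per the values in the deposited files.

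Covered bp were summed per gene window (gene span ± 5 kb; RefSeq, GRCm38.p6) over protein-coding genes and compared as log2(bp + 500) with limma 3.58.1 (lmFit, eBayes with trend) in R 4.3.3, for genes covered in at least 2 of 10 libraries, in 7 comparisons, with Benjamini-Hochberg adjustment over all genes of a mark. No scaling was applied, and each library centred on its median is the stated alternative. Named genes are Npm1, every gene called, and, for H3K27ac comparisons with under 3 calls, the 3 with the largest changes. The members and lists were chosen with earlier results of these data known. The fit was tested on simulated data. Coverage was computed with Python 3.11.15, NumPy 2.4.6 and pandas 2.3.3 and drawn with matplotlib 3.10.9. The design text calls the libraries biological replicates; the replicate numbers of the labels did not pair the libraries. One erythroid marker is counted in the sums of its list and is not reported by name here.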

Additional observations from a re-analysis of the deposited data

Results flagged for a closer look

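The test of the interaction set 13 results apart, in each of which the change in DM against Flt3-ITD HSPC differed from that in Npm1c against WT HSPC (limma, Benjamini-Hochberg, adjusted p under 0.05, no scaling). For H3K27ac the interaction, on the log2 scale of covered bp + 500, was -0.77 for Npm3, -0.92 for Ncl and -0.96 for Gnl3 among the nucleolar proteins. Among the modification particles it was -0.98 for Nop56, -0.99 for Nop58, -1.18 for Gar1 and -0.61 for Nop10. It was -0.58 for Polr1b and -1.40 for Taf1d, of RNA polymerase I transcription, and -0.90 for Wdr43, -1.04 for Wdr12 and -0.89 for Ddx21 among the maturation factors. For H3K4me3 it was -1.15 for Nop14. The H3K27ac calls were 12 of 38 genes (31.6%), where 16.6% of all genes were called below 0. For H3K4me3 the call was 1 of 38 (2.63%), where 3.78% of all genes were. After centring only Gar1 was called among these 13, where 2.87% of all genes were called below 0 for H3K27ac and 0.0806% for H3K4me3.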

How the results depend on the processing

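The counts are of the 38 genes called, in either direction, over the gene window without scaling, unless stated. Calls over all genes moved with the setting too, and their totals are given here for only some settings. A count without such a total beside it is not a result about the 38. With shared peaks, 5647 of 12673 genes rose for H3K27ac in Npm1c against WT HSPC. For H3K4me1 in DM against WT HSPC, 3117 of 16958 genes then rose and 8275 fell. Without extension, 1298 of 15400 genes rose and 2266 fell for H3K4me3 in neutrophils, where 18 of the 38 were called. With centring, H3K27ac counts were 0 in Npm1c against WT HSPC, 4 in DM against Npm1c HSPC, 2 in DM against Flt3-ITD HSPC and 1 in the interaction. H3K4me3 counts with centring were 0 in Flt3-ITD and DM against WT HSPC, DM against Npm1c HSPC and the interaction, and H3K4me1 counts were 0 in Flt3-ITD, 2 in DM and 3 in neutrophils against WT HSPC and 2 in DM against Npm1c HSPC. With peaks shared by both libraries of a group, which leaves 13861 of 16003 H3K4me3 genes and 9128 of 16958 H3K4me1 genes without spread, the counts for Npm1c, Flt3-ITD, DM and neutrophils against WT HSPC, DM against Npm1c and Flt3-ITD HSPC and the interaction were 6, 10, 7, 11, 8, 10 and 10 for H3K4me3 and 19, 18, 21, 23, 22, 21 and 25 for H3K4me1; for H3K27ac they were 24, 5 and 2 in Npm1c, Flt3-ITD and DM against WT HSPC, 8 in DM against Flt3-ITD HSPC and 26 in the interaction. With HSPC libraries only, H3K27ac counts were 4 in Npm1c against WT HSPC and 5 in the interaction, the H3K4me3 count was 1 in DM against Npm1c HSPC, and H3K4me1 counts were 1 in Npm1c and 3 in Flt3-ITD against WT HSPC, 2 in DM against Npm1c HSPC, 1 in DM against Flt3-ITD HSPC and 2 in the interaction. Without the filter, H3K27ac counts were 6 in Npm1c against WT HSPC and 5 in the interaction and the H3K4me1 count in neutrophils was 3. Equal lists of the widest H3K27ac peaks gave 5 in Npm1c against WT HSPC and 1 in DM against Flt3-ITD HSPC, where a pseudocount of 100 bp also gave 1. Without extension of the gene span, H3K27ac counts were 1 in DM against WT HSPC and 2 in DM against Flt3-ITD HSPC, H3K4me3 counts were 4 in DM and 18 in neutrophils against WT HSPC, 5 in DM against Npm1c HSPC, 4 in DM against Flt3-ITD HSPC and 4 in the interaction, and H3K4me1 counts were 1 in Npm1c against WT HSPC, 3 in DM against Npm1c HSPC and 1 in the interaction. With 10 kb, H3K27ac counts were 1 in DM against WT and against Flt3-ITD HSPC, and the H3K4me1 count was 0 in Flt3-ITD against WT HSPC. Within 1 kb of the start, a window chosen after seeing the data, H3K27ac counts were 2 in Npm1c and 1 in DM against WT HSPC, 5 in DM against Npm1c HSPC, 1 in DM against Flt3-ITD HSPC and 3 in the interaction, with centring 1, 1, 1 and 0 in DM against WT, Npm1c and Flt3-ITD HSPC and the interaction; H3K4me1 counts were 0 in Flt3-ITD and 1 in DM against WT HSPC and 1 each in DM against Npm1c and Flt3-ITD HSPC and the interaction. There H3K4me1 changes turned positive for Ncl (0.066 in DM against WT HSPC, 1.03 in neutrophils, 0.0101 in DM against Npm1c HSPC) and, in neutrophils, for Nhp2 (0.99) and Taf1d (0.36). The H3K4me3 fit in that window was not used, since most genes lack spread there. The replicate number did not pair libraries (correlation of deviations over 10 pairs of groups -0.108 to 0.275 for H3K27ac, -0.112 to 0.065 for H3K4me1 and -0.231 to 0.103 for H3K4me3); with it as a replicate block the H3K4me1 count in DM against Npm1c HSPC was 3, centred H3K27ac counts were 1 in DM against WT and Flt3-ITD HSPC and 0 in the interaction, and H3K27ac counts around the start were 0 in Npm1c against WT HSPC, 2 in DM against Npm1c HSPC, 0 in DM against Flt3-ITD HSPC and 0 in the interaction. Leaving out each library in turn gave ranges, in the same order of the 7 comparisons, of 0 to 4, 0 to 0, 0 to 4, 8 to 10, 5 to 22, 0 to 10 and 0 to 27 for H3K27ac; 0 to 0, 0 to 0, 0 to 2, 9 to 14, 0 to 5, 0 to 2 and 0 to 3 for it with centring; 0 to 0, 0 to 0, 0 to 8, 12 to 14, 1 to 18, 0 to 12 and 0 to 21 for it around the start; 1 to 4, 1 to 4, 1 to 3, 2 to 4, 1 to 5, 0 to 1 and 1 to 4 for H3K4me3; 0 to 2, 1 to 2, 1 to 3, 1 to 5, 1 to 7, 0 to 2 and 0 to 2 for H3K4me1; and 0 to 1, 0 to 1, 1 to 3, 4 to 7, 1 to 3, 1 to 2 and 1 to 2 for it around the start. Where a group is left with 1 library, that library is assumed to vary like the others. The cause of these moves was not tested beyond the spread lost with shared peaks.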
